A study of Mus musculus with 8 samples.

Results

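Reelin, the receptors that bind it and the adaptor behind those receptors were examined in cultured dermal fibroblasts. The cells came from mice with and without a *Tgfb1* deletion targeted to fibroblasts. The members were chosen by symbol as ligand (*Reln*), receptors (*Vldlr* and *Lrp8*, the latter also known as apolipoprotein E receptor 2) and adaptor (*Dab1*). Of these 4 genes, 3 had values among the 15111 genes listed, and *Dab1* was not analysed here.

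Primary fibroblasts from the back skin of adult, tamoxifen-fed mice had been kept for 72 h in serum replacement medium, and polyadenylated RNA was sequenced as paired-end, non-directional libraries. TGFβ1FKO mice carried floxed *Tgfb1* alleles (Tgfb1 fl/fl) together with Col1a2-CreERT, a Cre recombinase that the *Col1a2* promoter drives in fibroblasts and tamoxifen activates. Control mice carried the same floxed alleles without Cre and were also given tamoxifen, so the groups share the floxed alleles and the drug. Each group had 4 libraries. Neither the labels nor the methods state that each library came from a separate mouse, so p-values measure the spread between these libraries.

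Reelin is a large secreted glycoprotein of the extracellular matrix. It binds VLDLR and LRP8, members of the lipoprotein receptor family, whose tails recruit DAB1; Src family kinases then phosphorylate DAB1, and the signal passes to the CRK adaptors, PI3 kinase and the cytoskeleton. The pathway is best known for positioning migrating neurons in the developing brain. Outside the brain, reelin has been described in several secretory and vascular cell types, among them lymphatic endothelium, and VLDLR and LRP8 also bind apolipoprotein E and other ligands.

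The reads recovered from the deposited values summed to 16988998 to 21806579 per control library and 17445002 to 23071528 per TGFβ1FKO library. *Tgfb1*, the targeted gene, was lower in every TGFβ1FKO library (228.4 to 326.4 normalised counts) than in any control library (1298 to 1483), at 20.2% of the control mean. Its log2 fold change was -2.31 ± 0.10 (SE, n = 4 and 4; limma with Benjamini-Hochberg adjustment, adjusted p = 1.53e-07). The 7 fibroblast markers *Col1a1*, *Col1a2*, *Col3a1*, *Pdgfra*, *Dcn*, *Lum* and *Fn1* were all present, their sums overlapped between groups, and their median log2 fold change was -0.02. A gene was called changed in limma's test on log2(normalised count + 1) at an adjusted p under 0.05 with an absolute log2 fold change over 0.6. Over all genes, 13 (0.0860%) met this rule and 12 (0.0794%) met it in the lower direction.

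*Reln* (ENSMUSG00000042453), the ligand, lies on the minus strand of GRCm38 at chr5:21884454-22344702 and spans 460249 bases, of which 23738 are exonic in GENCODE M21. The antisense gene Gm10475 shares 246 exonic bases with it, and as the libraries do not keep strand, reads on these bases cannot be told apart between both genes. The 250 bases before the RefSeq start of *Reln*, at chr5:22344706-22344955 on the minus strand of GRCm38.p6, are printed here because *Reln* is the member whose groups did not overlap. The same window of *Vldlr*, at chr19:27216234-27216483 on the plus strand, is shown beside it as that of a receptor whose groups overlapped. For *Vldlr* the most upstream start was taken, and which start these cells use was not examined. Both are from RefSeq and read 5′ to 3′ along the gene, and capitals mark matches to 3 of the motifs searched on both strands.

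Reln: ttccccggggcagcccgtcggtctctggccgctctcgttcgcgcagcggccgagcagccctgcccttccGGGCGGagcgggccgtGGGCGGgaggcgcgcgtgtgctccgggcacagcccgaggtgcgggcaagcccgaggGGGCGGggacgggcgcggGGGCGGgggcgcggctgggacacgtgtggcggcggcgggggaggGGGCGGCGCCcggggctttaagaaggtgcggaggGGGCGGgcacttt
Vldlr: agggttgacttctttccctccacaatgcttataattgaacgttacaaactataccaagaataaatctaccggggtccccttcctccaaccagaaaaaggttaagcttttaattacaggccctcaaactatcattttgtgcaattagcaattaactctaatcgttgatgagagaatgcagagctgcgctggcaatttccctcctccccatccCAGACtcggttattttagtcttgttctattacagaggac

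The windows differ in composition. That of *Reln* is 80% G and C, and 98.8% of the 32851 windows of the same length had less, whereas that of *Vldlr* is 41.6% G and C, with 14.9% of windows below it. The *Reln* window holds 6 matches to the Sp1 box GGGCGG, a number that 0.886% of windows reach, while 32.7% of windows hold at least 1. One of these, 47 to 42 bases before the start, overlaps the only match to the GC-rich Smad motif GGCGCC, which lies 43 to 38 bases before the start and occurs in 9.59% of windows. The *Vldlr* window holds 1 match to the Smad half-site CAGAC, 39 to 35 bases before the start, which occurs in 42.2% of windows. The AP-1 letters TGACTCA, found in 4.46% of windows, were in neither. A match is a run of letters and not a measured binding site.

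*Reln* had 46.5, 77.6, 89.8 and 33.6 normalised counts in control libraries 1 to 4. It had 16.2, 28.0, 24.1 and 15.5 in TGFβ1FKO libraries 1 to 4. All TGFβ1FKO libraries lay below all control libraries. In both groups, libraries 2 and 3 were the highest and library 4 was the lowest. The means were 61.9 ± 26.2 in controls and 20.9 ± 6.08 in TGFβ1FKO fibroblasts (SD, n = 4 each), so the TGFβ1FKO mean was 33.9% of the control mean.

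The log2 fold change of *Reln* was -1.46 ± 0.32 (SE), with a 95% interval of -2.14 to -0.77, or 0.364 times the control level (0.227 to 0.586). In limma's test across all genes *Reln* did not pass (Benjamini-Hochberg adjusted p = 0.169), and it stood at place 46 when genes were ordered by p. At an unadjusted p under 0.05, 7.46% of all genes were found. The two-sided exact permutation test on the level gave p = 0.0286, and groups of 4 and 4 libraries cannot give less. Groups did not overlap with TGFβ1FKO lower in 2.10% of all genes, and in either direction in 3.79%.

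The call on *Reln* changed with the test and with the libraries kept. Applied to the recovered reads, DESeq2's Wald test of no change gave a log2 fold change of -1.55 with an adjusted p of 0.0031, in a test that called 0.371% of all genes. With the null set at a log2 change of 0.6 in size, DESeq2 gave *Reln* an adjusted p of 1, and edgeR's quasi-likelihood test gave -1.54 with an adjusted p of 0.151. Without control library 4, the control with the fewest *Reln* reads, limma gave -1.71 with an adjusted p of 0.0439, and 0.212% of all genes were called. With any other single library left out, *Reln* did not pass in limma's test (adjusted p 0.191 to 0.594).

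*Reln* rested on few reads. The recovered reads were 54, 73, 81 and 34 in the control libraries and 16, 27, 29 and 14 in the TGFβ1FKO libraries. The exact Poisson 95% interval of control library 4 was 23.3 to 46.9 normalised counts and that of TGFβ1FKO library 2, its nearest neighbour across the groups, was 18.4 to 40.7, so these 2 libraries could not be told apart by counting error alone. These intervals cover counting error only and treat each read as a separate molecule. Reads copied by PCR would make them too narrow even for that. The coefficient of variation was 42.4% among controls and 29.0% among TGFβ1FKO libraries.

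**Figure D1:**
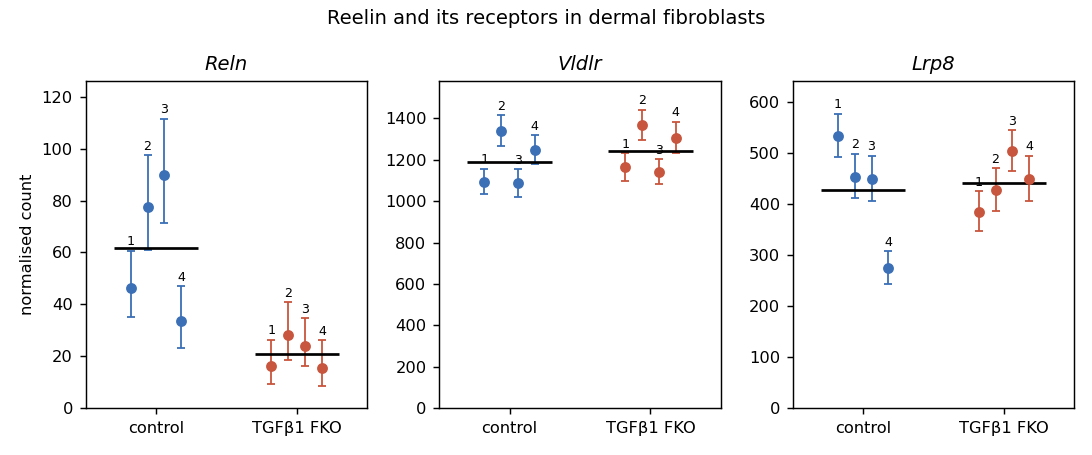
Normalised counts (vertical axes from 0) of Reln, Vldlr and Lrp8 in each library by genotype; numbers are replicate numbers, bars are exact Poisson 95% intervals for counting error and black lines are group means. The 4 TGFβ1 FKO libraries sit between 15.5 and 28.0 for Reln, below the controls at 33.6 to 89.8, while the groups overlap for Vldlr and Lrp8.

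*Vldlr* (ENSMUSG00000024924), a reelin receptor that also binds lipoproteins, lies on the plus strand at chr19:27216484-27254231 with 10068 exonic bases. It had 1094, 1340, 1086 and 1247 normalised counts in control libraries 1 to 4. It had 1164, 1367, 1142 and 1307 in TGFβ1FKO libraries 1 to 4. The groups overlapped over most of their range, and in both groups libraries 2 and 4 were above libraries 1 and 3. The means were 1192 ± 124 and 1245 ± 110 (SD, n = 4 each). The log2 fold change was 0.06 ± 0.08 (SE; limma, Benjamini-Hochberg adjusted p = 0.890), and its 95% interval of -0.11 to 0.24 corresponds to 0.924 to 1.18 times the control level. The exact permutation test on the level gave p = 0.543.

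*Lrp8* (ENSMUSG00000028613), the other reelin receptor, lies on the plus strand at chr4:107802261-107876840 with 10514 exonic bases. The antisense genes Lrp8os1 and Lrp8os2 lie within its span and share 0 exonic bases with it. It had 533.4, 453.7, 449.1 and 273.6 normalised counts in control libraries 1 to 4. It had 384.2, 426.7, 503.2 and 448.7 in TGFβ1FKO libraries 1 to 4. The groups overlapped, and control libraries 1 and 4 were the highest and the lowest of all 8. The means were 427.4 ± 109.6 and 440.7 ± 49.5 (SD, n = 4 each).

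The log2 fold change of *Lrp8* was 0.08 ± 0.17 (SE; limma, Benjamini-Hochberg adjusted p = 0.940), with a 95% interval of -0.28 to 0.44, or 0.823 to 1.36 times the control level. The exact permutation test on the level gave p = 0.914. The direction rested on control library 4, without which the log2 fold change was -0.12, and the difference of mean levels also turned without TGFβ1FKO library 3 (-7.58 normalised counts). Changes of either receptor within its 95% interval remain compatible with these libraries.

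Per kilobase of exon, the order of levels was *Vldlr*, *Lrp8* and *Reln* in every library. *Vldlr* had 108 to 133 normalised counts per kb in controls and 113 to 136 in TGFβ1FKO libraries, and *Lrp8* had 26.0 to 50.7 and 36.5 to 47.9. *Reln* had 1.41 to 3.78 in controls and 0.653 to 1.18 in TGFβ1FKO libraries. The ranges of the 3 genes were apart in both groups. By the mean over all libraries, *Vldlr* (121 per kb) stood at the 60.3rd percentile of the genes listed, *Lrp8* (41.3 per kb) at the 37.5th and *Reln* (1.74 per kb) at the 2.68th. The receptors were thus mid-range transcripts in these fibroblasts and the ligand was among the sparsest genes listed.

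Whether the ligand differed from its receptors in response was tested within libraries, as log2(normalised count + 1) of *Reln* minus that of each receptor. *Reln* minus *Vldlr* was -5.17 to -3.58 in controls (mean -4.34 ± 0.68, SD, n = 4) and -6.31 to -5.51 in TGFβ1FKO libraries (mean -5.86 ± 0.39). *Reln* minus *Lrp8* was -3.49 to -2.31 in controls (mean -2.83 ± 0.52) and -4.77 to -3.88 in TGFβ1FKO libraries (mean -4.37 ± 0.37). In both pairs all TGFβ1FKO libraries were below all controls. The *Reln* groups did not overlap and both receptors changed little, so these differences largely repeat that of *Reln*. *Reln* itself did not pass in limma's test over all genes.

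The group means differed by -1.52 for *Reln* minus *Vldlr* and by -1.54 for *Reln* minus *Lrp8*. The two-sided exact permutation p was 0.0286 for each, the smallest this design can give, and 0.0286 after Benjamini-Hochberg adjustment over the 2 pairs, which share the *Reln* values. Per kilobase of exon, there were 28.5 to 87.6 times as many normalised counts of *Vldlr* as of *Reln* in controls and 112 to 199 times as many in TGFβ1FKO libraries. For *Lrp8* these ratios were 11.3 to 25.9 and 34.5 to 65.3.

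**Figure D2:**
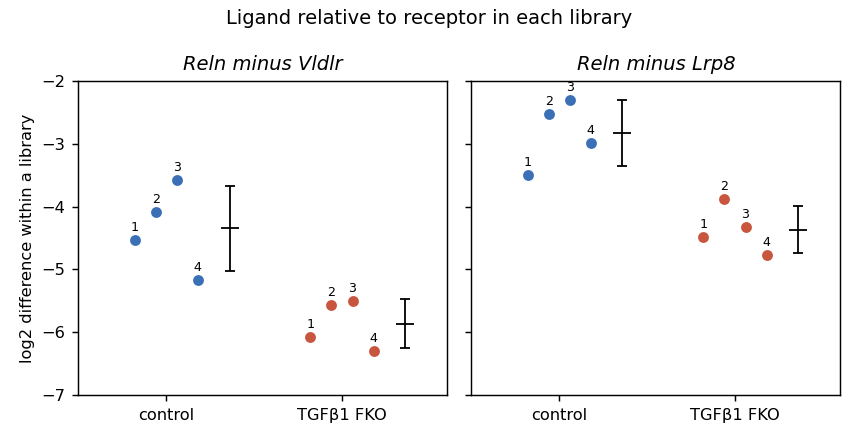
Difference within each library between log2(normalised count + 1) of Reln and of Vldlr (left) or Lrp8 (right), by genotype; points are libraries with their replicate numbers, and black marks with bars are group means ± SD. Every TGFβ1 FKO library lies below every control, with differences of group means of -1.52 and -1.54.

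The rest of the pathway was described from 6 lists of 68 genes, of which 67 had values. In limma's test 0 of the 67 were called, 26 had lower and 41 had higher means on the log2 scale in TGFβ1FKO fibroblasts, and the smallest adjusted p was 0.459. Their median log2 fold change was 0.03, against 0.003 over all genes. At an unadjusted p under 0.05 there were 9 (13.4%, against 7.46% of all genes), 1 of them lower and 8 higher. The groups did not overlap in 5 (7.46%, against 3.79% of all genes), 1 of them lower and 4 higher.

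Enzymes that cleave reelin or are proposed to do so, 6 genes in all, had lower means in 4 and higher means in 2, and their median log2 fold change was -0.03. *Adamts2*, which cleaves reelin and procollagens, had the highest level of this list per length, with 23753 normalised counts in controls and 23208 in TGFβ1FKO libraries on average. *Adamts4*, the lowest in p, had 1796 ± 148 and 2076 ± 253 (log2 fold change 0.20, adjusted p = 0.647). *Adamts3*, which inactivates reelin in the brain, had 9.84 ± 4.79 and 8.05 ± 2.70. None of the 6 had groups apart.

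Other ligands and regulators of the receptors, 8 genes, included 5 with lower and 3 with higher means (median -0.08). *Apoe*, a lipoprotein ligand of both receptors, had 1367 ± 247 normalised counts in controls and 1120 ± 237 in TGFβ1FKO libraries (log2 fold change -0.30, adjusted p = 0.675). *Thbs1* (thrombospondin 1, a matrix protein that also binds the receptors) was the most abundant of this list per length, with means of 197687 and 230068 (0.21, adjusted p = 0.708). *Mylip*, whose product marks the receptors for degradation, had a log2 fold change of -0.16, and its groups overlapped.

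Proposed co-receptors, 5 genes, included 1 with a lower and 4 with higher means (median 0.04). *Efnb1*, encoding ephrin B1, had 1619 ± 74.4 normalised counts in controls and 1815 ± 126 in TGFβ1FKO libraries, and its groups did not overlap by a narrow margin (highest control 1670.25, lowest TGFβ1FKO 1670.45). Its log2 fold change of 0.16 did not pass (adjusted p = 0.606). *Itgb1*, the integrin β1 chain, was the highest per length, with means of 22830 and 24162.

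Other members of the lipoprotein receptor family were the least evenly divided list, with 1 lower and 11 higher of the 12 genes with values and a median of 0.08. *Lrp2* (megalin, an endocytic receptor) had the largest fold change among them, from 91.1 ± 37.6 to 135.4 ± 25.0 normalised counts (0.64 ± 0.25, SE, adjusted p = 0.634), and its groups overlapped. *Lrp1*, the most abundant per length, had 46924 ± 10237 and 52157 ± 1331 (0.18, adjusted p = 0.774). None of the 12 was called and none had groups apart.

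Adaptors with a phosphotyrosine-binding domain like that of DAB1, 6 genes, divided into 3 lower and 3 higher (median 0.02). *Dab2*, the relative of *Dab1* best known from endocytosis, had 1340 ± 68.9 normalised counts in controls and 1469 ± 164 in TGFβ1FKO libraries (0.13, adjusted p = 0.729). *Dab2ip* was the highest of the list per length, with means of 2569 and 2663.

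Genes acting below DAB1, 30 in all, divided into 12 lower and 18 higher (median 0.02). Of the 30, 5 had an unadjusted p under 0.05 in limma's test (7.46% of all genes). Groups did not overlap in 1 lower and 3 higher genes of the list (3.79% of all genes in either direction). *Fyn*, a Src family kinase that phosphorylates DAB1, had 2905 to 3193 normalised counts in controls and 3379 to 3514 in TGFβ1FKO libraries, so the groups did not overlap. Its log2 fold change was 0.17 ± 0.05 (SE) and did not pass (adjusted p = 0.459). The other kinases of this kind, *Src* (1411 ± 66.2 and 1427 ± 104) and *Yes1*, had overlapping groups.

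*Rapgef1*, the exchange factor for RAP1 downstream of CRK, and *Nck2*, an SH2/SH3 adaptor, were the other genes of this list without overlap in the higher direction. *Rapgef1* had 2392 ± 174 and 2661 ± 71.1 normalised counts (0.16, adjusted p = 0.606), and *Nck2* had 830.2 ± 35.5 and 882.1 ± 28.6 (0.09, adjusted p = 0.753). *Cdk5r1*, the p35 activator of CDK5, was the only one without overlap in the lower direction, with 24.7 to 31.9 in controls and 8.11 to 23.3 in TGFβ1FKO libraries (-0.88 ± 0.30, SE, adjusted p = 0.565). The highest level per length was that of *Cfl1* (cofilin), with means of 14901 and 15135.

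**Figure D3:**
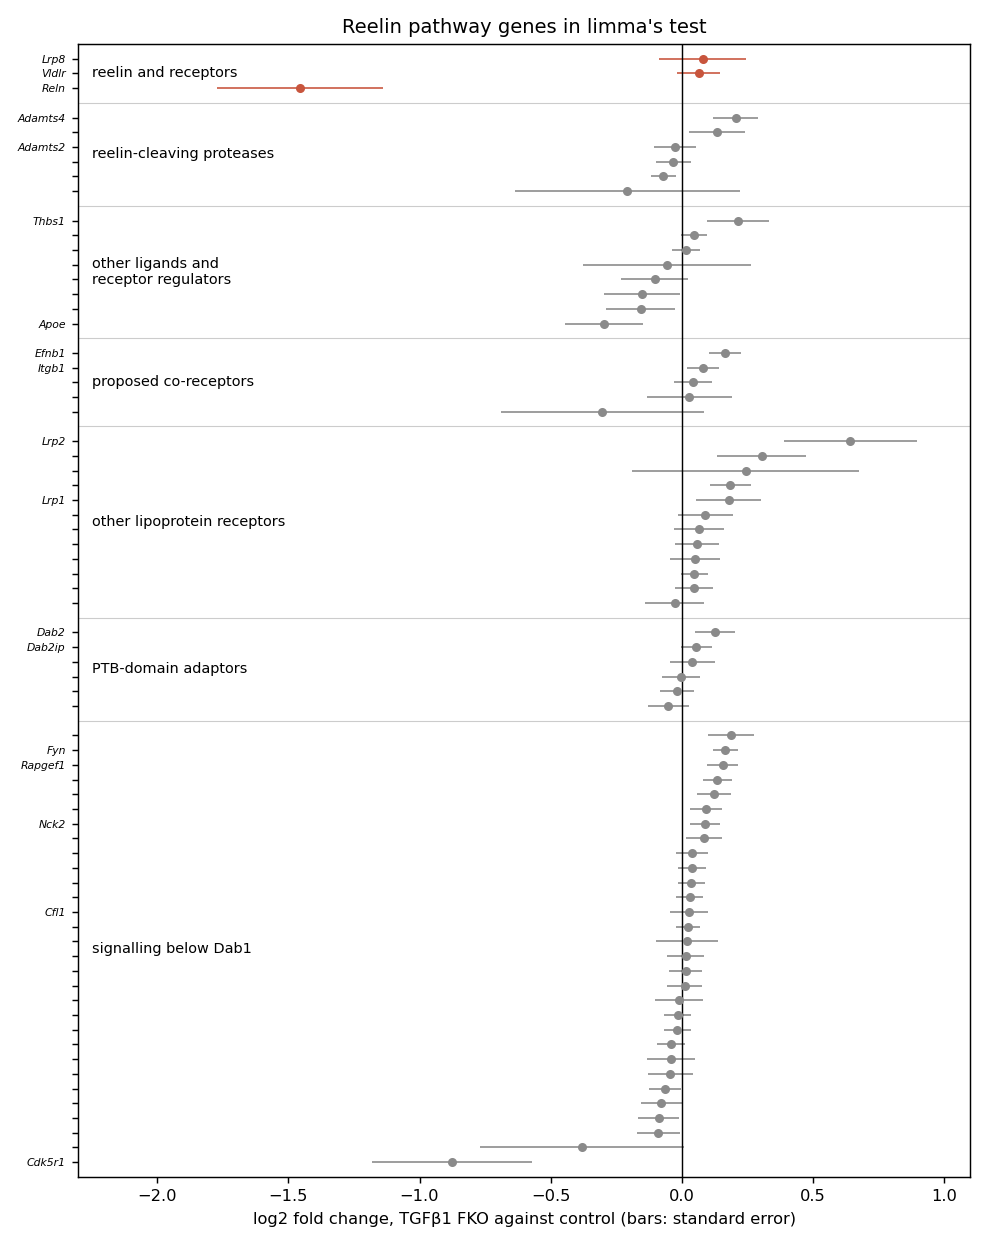
Log2 fold change (TGFβ1 FKO against control, horizontal axis) of the 3 members in red and of 67 pathway genes in grey, grouped by list and ordered within each, with names only for members and genes named by the rule; points are limma estimates and bars their standard errors. Reln lies at -1.46, apart from Vldlr (0.06), Lrp8 (0.08) and the pathway genes, of which Cdk5r1 (-0.88) and Lrp2 (0.64) lie farthest from 0.

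The genes whose pattern over the libraries was closest to that of each member were found by Pearson correlation of log2(normalised count + 1) among 13862 genes with a mean of at least 10. These correlations are over 8 libraries, share library and depth between genes, include the difference between groups, and are given as a description. For *Reln* the 5 closest were *Gldn* (r = 0.976), *Kcna6* (0.959), *Foxd3* (0.956), *Klhl30* (0.954) and *Cdh19* (0.952). With each group centred on its own mean, r was 0.921, 0.854, 0.889, 0.894 and 0.827. As these genes were picked for their r over the same libraries, high values within groups follow in part from that choice.

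All 5 were lower in every TGFβ1FKO library than in any control (2.10% of all genes in this direction). As they were picked for their r with *Reln*, whose groups did not overlap, this follows in part from that choice. *Gldn*, encoding gliomedin, a matrix protein that Schwann cells secrete at nodes of Ranvier, had 58.3 to 128.6 normalised counts in controls and 29.4 to 44.8 in TGFβ1FKO libraries (-1.32, adjusted p = 0.0716). *Foxd3*, a neural crest and glial transcription factor, had 36.5 to 119.8 and 3.04 to 9.13 (-3.20, adjusted p = 0.00757) and was the only one of the 5 called. *Cdh19*, a cadherin of Schwann cell precursors, had 29.6 to 144.2 and 6.65 to 23.3 (-2.44, adjusted p = 0.0799).

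*Kcna6*, a potassium channel subunit, had 9.88 to 45.5 and 2.03 to 8.28 normalised counts (-2.20, adjusted p = 0.166), and *Klhl30* had 54.3 to 82.1 and 46.6 to 52.8 (-0.40, adjusted p = 0.654). In *Reln* and in these 5 genes, control library 4 was the lowest control and control library 3 the highest. This likeness also follows in part from the choice of the 5 by r.

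For *Vldlr* the closest genes were *Zfp229* (r = 0.973), *Hook3* (0.969), *Wwc2* (0.963), *Sybu* (0.961) and *Zfp518a* (0.957). For *Lrp8* they were *Riok3* (0.992), *Hsd17b7* (0.985), *Hdac1* (0.973), *Eif1a* (0.961) and *Mthfd2l* (0.961). None of these 10 was called, and the groups overlapped in each. *Reln* itself had r = -0.21 with *Vldlr* and 0.17 with *Lrp8*, and with groups centred these were 0.02 and 0.54.

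**Figure D4:**
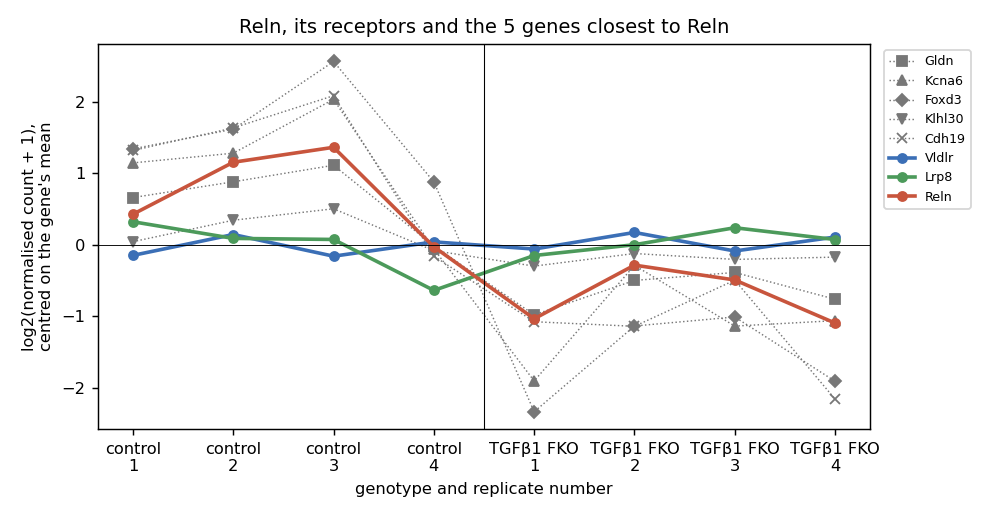
Log2(normalised count + 1) in each of the 8 libraries, centred on the gene's own mean, for Reln, Vldlr and Lrp8 (coloured) and the 5 genes closest to Reln (grey); lines only join the points of a gene, and libraries have no order. The grey genes follow Reln, with r of 0.952 to 0.976, whereas Vldlr and Lrp8 do not, and the lowest point of Lrp8 is control library 4.

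Markers of other cell types that skin preparations can hold were summed beside *Reln*. Of 12 Schwann cell markers 10 had values, and all 10 were lower in TGFβ1FKO libraries, each with an unadjusted p under 0.05 (7.46% of all genes in either direction). The groups did not overlap in 8 (2.10% of all genes in this direction) and 3 were called (0.0794% of all genes in this direction), with a median log2 fold change of -2.24 for the list. Their sums were 1794 to 2678 normalised counts in controls and 952 to 1867 in TGFβ1FKO libraries. *Ngfr* was the most abundant of them, and the sums of the other 9, formed after the values had been seen, were 542.2 to 1292 and 255.8 to 354.8. No defining marker with values was at 0 in any library, and *Sox10*, the lineage factor of Schwann cells, had 72.1 to 207.4 and 7.25 to 21.1 normalised counts.

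The correlation with *Reln* over 8 libraries of the 10 Schwann cell markers ran from 0.392 for *Ngfr*, the most abundant, through 0.581 for *S100b*, 0.712 for *Mbp* and 0.835 for *Sox10* to 0.952 for *Cdh19* and 0.956 for *Foxd3*. With groups centred, r ran from -0.40 for *Ngfr* and -0.17 for *S100b* through 0.24 for *Sox10* to 0.827 for *Cdh19* and 0.889 for *Foxd3*, so the markers differed in how closely they followed *Reln* within a genotype. In bulk libraries, fewer cells of a type and less RNA per cell cannot be told apart. The part of Schwann cell RNA in the *Reln* result was not tested.

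Lymphatic endothelial markers, 4 of 5 with values, were all lower in TGFβ1FKO libraries (median on the log2 scale -0.58). Of these markers, 1 had an unadjusted p under 0.05 in limma's test (7.46% of all genes in either direction). Their sums were 133.3 to 176.3 normalised counts in controls and 115.2 to 148.6 in TGFβ1FKO libraries. *Prox1*, the lineage factor, had 25.8 to 50.4 and 17.2 to 63.2, and *Mmrn1* had 5.93 to 34.4 and 0 to 12.4. All 11 blood endothelial markers were lower, 2 with an unadjusted p under 0.05 (against the same 7.46%). Their median was -0.47, and their sums were 594.5 to 921.2 in controls and 570.7 to 644.2 in TGFβ1FKO libraries. The groups overlapped in every endothelial marker. With groups centred, several of these followed *Reln* as closely as the Schwann cell markers did, among them *Emcn* (r = 0.890), *Cdh5* (0.879), *Egfl7* (0.845) and *Mmrn1* (0.811), while *Lyve1* (-0.25) and *Vwf* (-0.16) did not. Over 8 libraries the closest endothelial marker was *Pecam1* (0.883). The part of endothelial RNA in the *Reln* result was not tested.

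Pericyte markers (6 of 7 with values) had a median of -0.21 on the log2 scale and summed to 1260 to 1965 and 1248 to 1682 normalised counts, and with groups centred *Mcam* had r = 0.926 with *Reln* and *Abcc9* had -0.17. Macrophage markers (2 of 4) had a median of -0.13, and melanocyte markers (2 of 5) had one of -0.21. The only keratinocyte marker with values, *Krt10*, had 60.6 to 85.9 normalised counts in controls and 57.3 to 75.6 in TGFβ1FKO libraries. None of these was called, and neuronal markers were not analysed here. Their part in the *Reln* result was not tested. With groups centred, the 7 fibroblast markers had r of -0.77 (*Lum*) to -0.19 (*Col1a2*) with *Reln*. Over 8 libraries these ran from -0.36 (*Lum*) to 0.02 (*Dcn*).

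**Figure D5:**
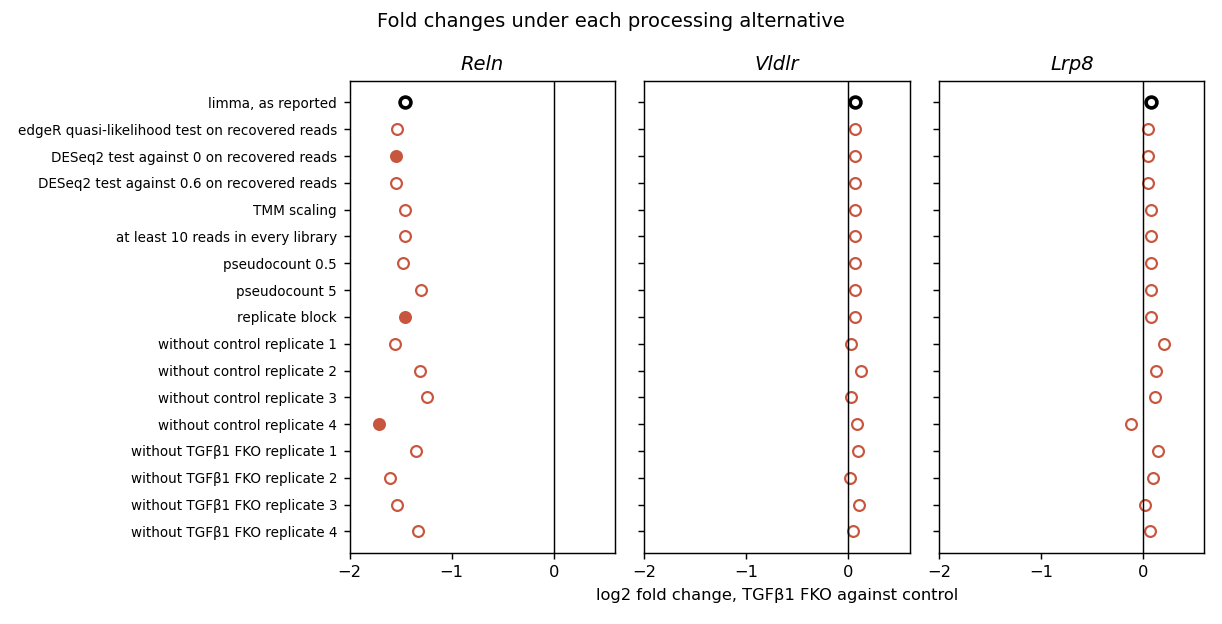
Log2 fold change of Reln, Vldlr and Lrp8 (TGFβ1 FKO against control, horizontal axes) as reported and under each of 16 alternatives (rows); filled points passed an adjusted p under 0.05 with an absolute log2 fold change over 0.6. Reln stays between -1.71 and -1.24 and passes in 3 alternatives, while Vldlr and Lrp8 stay between -0.12 and 0.20 and never pass.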

How the data were processed

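RNA-seq of 8 libraries was analysed, grouped by the genotype in the labels. Per the submitters' processing notes and the methods, HISAT2 2.0.5 (GRCm38), featureCounts 1.5.0-p3 and DESeq2 1.42.0 in R 4.3.2 were used, and genes with few reads were dropped. The authors deposited normalised counts (a signal), namely reads divided by a size factor with 0.5 added. The authors' deposited log2 fold changes, standard errors, Wald score and p-values hold their own comparison and were not used.

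The 0.5 was subtracted. The design named tests for raw and for normalised counts, and the latter was used: log2(normalised count + 1) of 15111 genes was fitted by limma 3.58.1 (R 4.3.3; trended prior variance). The pseudocount understates changes of sparse genes such as *Reln*. Reads recovered from the values, whole in each library within 0.05 reads, were tested with edgeR 4.0.16 and DESeq2 1.42.0. On simulated data with 200 of 15111 genes changed, each test recovered 100%. The changed genes were drawn from genes more abundant than *Reln* and were given larger changes. That share therefore does not apply to *Reln*, or to changes as small as those of the receptors and pathway genes. Exact permutation tests (scipy 1.17.1) compared single values. No pair of libraries agreed within sampling noise (smallest chi-square per degree of freedom 4.89).

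Members, gene lists and tests were chosen with earlier results of these data known. Named were the members, *Tgfb1*, overlapping genes, the 5 genes closest to each member and, per pathway list, called genes, those without overlap, the lowest p and the highest level per kb. *Adamts3*, *Mylip*, *Src*, *Yes1* and single markers were named beyond this rule after values were seen. Some listed genes are counted but not reported here by name. Alternatives covered test, scaling, filter, pseudocount, replicate block and each library left out. Coordinates and exons are from GENCODE M21, which held 15098 of the genes.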

Additional observations from a re-analysis of the deposited data

Results flagged for a closer look

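Among 88 groups of 4 libraries examined, in 5 of them 1 library stood apart from the other 3 by Dixon's criterion, where chance alone gives about 4.4. Control library 4 was the library in 4 of the 5. It had 28142 normalised counts of *Adamts2* (the other controls 21912 to 22948) and 101.7 of *Mthfd2l*, a gene close to *Lrp8* in pattern (147.7 to 153.1). Its summed lymphatic endothelial markers came to 133.3 normalised counts (170.0 to 176.3) and its summed melanocyte markers to 111.6 (43.6 to 47.3). The remaining one was *Nck2* in control library 3, at 777.3 normalised counts (842.6 to 851.7). The levels of *Reln*, *Vldlr* and *Lrp8* were not among them.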

How the results depend on the processing

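*Reln* was lower under all 16 alternatives (log2 fold change -1.71 to -1.24, adjusted p from 0.0031 to 1, the latter in DESeq2's test against 0.6, which called 15 genes). It became called in DESeq2's test against 0 (-1.55, adjusted p = 0.0031), with the replicate number as a block (-1.46, adjusted p = 0.0321) and without control library 4 (-1.71, adjusted p = 0.0439). With single libraries left out, limma gave -1.71 to -1.24 for *Reln*, and its level difference was -50.3 to -31.6 normalised counts, *Reln* minus *Vldlr* -1.80 to -1.27 and *Reln* minus *Lrp8* -1.76 to -1.36, each with the smallest exact p that 3 against 4 allow, 0.0571. *Vldlr* kept its direction and stayed uncalled throughout (0.02 to 0.12). *Lrp8* stayed uncalled (-0.12 to 0.20) and turned without control library 4 (log2 fold change -0.12; level difference -38.0, range -38.0 to 48.6) and without TGFβ1FKO library 3 (level difference -7.58).

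Genes called over the whole table numbered 13, against 20 in edgeR, 56 in DESeq2's test against 0, 3 with at least 10 reads in every library, 31 with the replicate block and 5 to 32 with single libraries left out (32 without control library 4). Pathway genes called were 0 in limma (9 at an unadjusted p under 0.05) and 0 in every alternative. Same-numbered libraries deviated together with r of 0.16, -0.13, 0.05 and 0.16, and not every library correlated best with its own number. These values do not show that the numbers pair the libraries, and they cannot exclude it. As a block, the replicate numbers left *Reln* minus *Vldlr* at -1.52 and *Reln* minus *Lrp8* at -1.54. The exact p was 0.125 for each, the smallest 4 pairs allow. The causes of these shifts were not tested. *Reln* had 14 to 81 reads per library, the fewest of the 3 genes.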
